A study of Mus musculus with 16 samples.

Results

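The changes that mouse mammary tumor organoids of 3 mutant genotypes shared were taken as the genes whose level in all 13 mutant samples lay beyond that in all 3 WT samples. A gene counted as shared when the mean of the 3 mutant genotypes differed from WT at an adjusted p under 0.05 (edgeR's quasi-likelihood test, Benjamini-Hochberg over all genes tested) and every mutant sample lay above, or every mutant sample lay below, every WT sample. Of 55487 genes in the tables, 24252 had enough counts to be tested, and 1443 of these (5.95%) were shared. In mutant organoids 496 of them were higher (2.05% of genes tested) and 947 were lower (3.9%). The test by itself called 1020 genes higher (4.21%) and 1704 lower (7.03%). The separation of the samples was a condition for membership, so it is described and supports nothing by itself. Levels are CPM, counts scaled to a common library size with edgeR's TMM factors, and differences are log2 fold changes of mutant over WT with their standard error (SE).

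Organoids are small tissue-like cultures in which cells grow as clusters. The WT organoids (n = 3) came from normal breast. The mutant organoids came from breast tumors and carried a PIK3CA mutation (n = 4), a HER2 mutation (n = 4) or both (the double mutant, n = 5). The series title names the alleles as HER2 V777L and PIK3CA H1047R, and asks about the axis of p21, CDK4/6 and cyclin D1. All groups were grown in the same medium with EGF (epidermal growth factor), N-acetyl-cysteine, B27 supplement and a share of Rspo1 and Noggin conditioned medium. Strain, age, and the promoter or Cre behind the mutations were not given in the sources used here. Genotype and tissue source cannot be told apart in any comparison with WT. The labels do not say that the samples came from separate animals, so the p-values measure the spread between these samples, which may be technical.

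The product of PIK3CA is a catalytic part of the lipid kinase PI3K, and HER2 (mouse gene Erbb2) is a tyrosine kinase receptor that signals through PI3K and ERK. Both pathways are known to raise cyclin D1, which drives cells out of G1, and to act on the transcription factors that govern lipid synthesis. The p21 protein, encoded by Cdkn1a, inhibits cyclin-dependent kinases and is the best known target of p53. Cultures made from mammary tissue can also carry over macrophages, fibroblasts and endothelial cells beside the epithelium.

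Total counts per sample ranged from 45545182 to 64168308. The epithelial gene Epcam was present in all 16 samples at 479 to 699 CPM. Erbb2 was not shared: it stood at 153, 171 and 145 CPM in WT replicates 1 to 3, and the 4 PIK3CA samples overlapped these values, averaging 168 ± 16.1 CPM (SD, n = 4). Erbb2 averaged 3600 ± 803 CPM (SD, n = 4) in HER2 organoids and 2031 ± 639 CPM (SD, n = 5) in double mutants. For the mean of the mutant genotypes its log2 fold change was 2.78 ± 0.24 (SE, edgeR adjusted p = 7.75e-06), and a fit of mutants against WT as 2 groups gave an adjusted p of 0.0565. Pik3ca did not pass the test (log2 fold change 0.18 ± 0.09, edgeR adjusted p = 0.235).

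The 2 directions differed in level and in size. Genes that were higher in mutants had a median log2 fold change of 1.09 and a median level of 30.2 CPM, and genes that were lower had a median of -2.26 and 2.92 CPM. Over all genes tested the medians were 0.00316 and 3.66 CPM. Protein-coding genes made up 79.8% of the higher set, 86.7% of the lower set and 63.6% of genes tested. The WT samples also differed more from each other in the lower set, where the highest WT level was 1.81 times the lowest at the median, against 1.32 times in the higher set and 1.42 times over all genes tested. Median GC content lay between 48.9% and 49.8% in both sets and over all genes, and median exon length was 4011 bases in the higher set, 4193 in the lower set and 2909 over all genes tested.

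Most shared genes were separated by a small gap. The nearest mutant and WT samples were at least 1.5-fold apart in 65 of the 496 higher genes and in 388 of the 947 lower genes. The gap was at least 4-fold in 10 higher and 68 lower genes. At the edge of the rule, Atrnl1 was just inside on the higher side, with a highest WT level of 76.25 CPM and a lowest mutant level of 76.25 CPM. Rpl32 was just outside, at 216.4 CPM in both. On the lower side Il18 was just inside (0.944 CPM in the lowest WT sample, 0.943 in the highest mutant) and Pheta1 just outside (18.55 and 18.56 CPM).

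**Figure D1:**
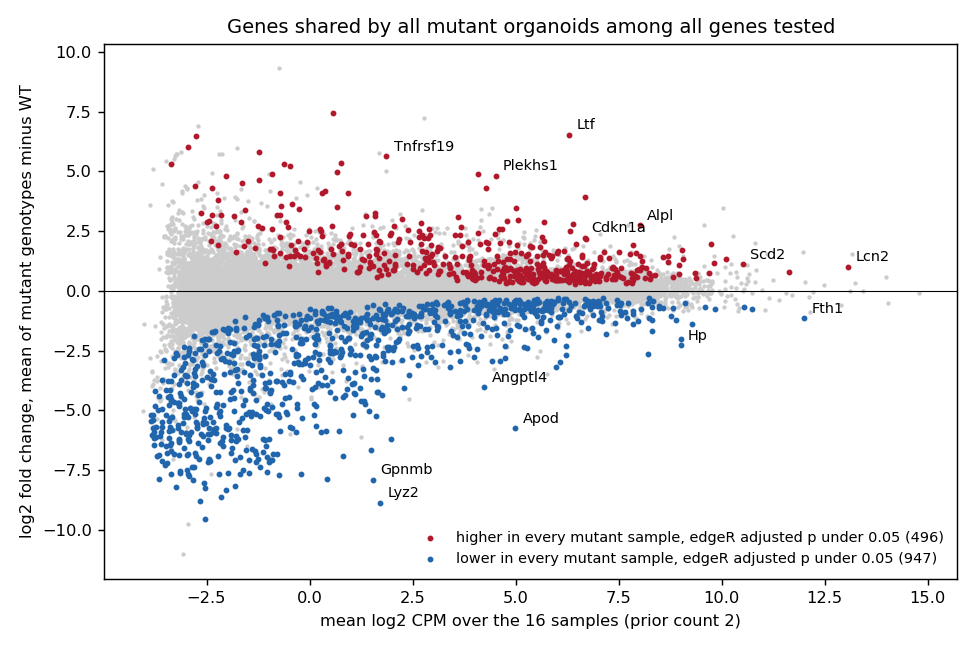
Each point is a gene tested, with its mean log2 CPM over the 16 samples on the x axis and the log2 fold change of mutants over WT on the y axis. The 496 shared genes that were higher (red) lie mostly at middle and high levels, and the 947 that were lower (blue) reach down to low levels and to larger differences.

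The counts rested on the 3 WT samples. Without WT replicate 1, 256 genes were shared and higher and 919 shared and lower. Without WT replicate 3, the counts were 167 and 627. Without WT replicate 2, they were 631 and 1173. Of the 1443 shared genes, 931 were still shared without WT replicate 1, 1128 without WT replicate 2 and 758 without WT replicate 3. When each genotype had to pass against WT by itself, 637 genes qualified (173 higher and 464 lower), 578 of them among the 1443. PIK3CA organoids passed least often. Of the 496 higher genes, 170 were called in PIK3CA, 400 in HER2 and 436 in double mutants. Of the 947 lower genes, these counts were 520, 727 and 827. Over all 24252 genes tested they were 1096, 2518 and 2850.

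The largest shared rise among genes averaging at least 10 CPM in mutants was in Ltf, the iron-binding milk protein lactoferrin. Ltf stood at 3.44, 4.64 and 2.3 CPM in WT replicates 1 to 3 and at 15.6 (lowest), 106 (median) and 7383 CPM (highest, HER2 replicate 2) in mutants, a log2 fold change of 6.54 ± 1.48 (SE, edgeR adjusted p = 0.00905). Every mutant sample was above WT, and HER2 replicates 2 and 3 stood far above the other mutants. Its edgeR adjusted p was 0.0536 without WT replicate 1, 0.0724 without WT replicate 3 and 0.0544 in the fit of 2 groups. Tnfrsf19, a receptor of the TNF receptor family, was at or below 0.245 CPM in WT and at 3.02, 4.69 and 44.5 CPM (lowest, median, highest) in mutants, with a log2 fold change of 5.63 ± 0.77 (edgeR adjusted p = 0.000161). Muc4, a membrane mucin known as a partner of the HER2 receptor, stood at 0.979, 3.52 and 0.25 CPM in WT and at 7.57, 35.8 and 171 CPM in mutants (log2 fold change 4.88 ± 1.09, edgeR adjusted p = 0.00861, and 0.0576 and 0.0602 without WT replicate 1 or 3). Plekhs1, which encodes a pleckstrin homology domain protein, was at 0.857, 3.56 and 0.901 CPM in WT and at 15.6, 45.5 and 158 CPM in mutants, a log2 fold change of 4.81 ± 0.71. WT replicate 2 was the highest WT sample for Muc4 and Plekhs1.

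4 further genes made up the 8 with the largest rise. They were Pglyrp1 (a peptidoglycan recognition protein, log2 fold change 4.31 ± 0.65), Sparcl1 (a secreted matricellular protein, 3.95 ± 0.59), St8sia6 (a sialyltransferase, 3.48 ± 0.46) and Ttc9 (3.08 ± 0.73). Ttc9 lost the call without WT replicate 1 or 3 (edgeR adjusted p = 0.0731 and 0.0747). Sparcl1 stood between 7.7 and 19.4 CPM in WT and between 76.3 and 545 CPM in mutants, so its nearest samples were well apart.

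Cd163, Alpl and Pak6 were among the rises with the lowest p-values. Alpl, the tissue-nonspecific alkaline phosphatase, stood at 52.9, 67.7 and 47.2 CPM in WT and at 193, 379 and 508 CPM (lowest, median, highest) in mutants, a log2 fold change of 2.74 ± 0.24 (edgeR adjusted p = 7.82e-06). Its change was of like size in each genotype, at 2.85 in PIK3CA, 2.43 in HER2 and 2.95 in double mutants. Pak6, a serine/threonine kinase, rose by a log2 fold change of 2.58 ± 0.32 (edgeR adjusted p = 7.06e-05). The most abundant shared rises were in Lcn2, an iron-carrier-binding lipocalin, and in Xist, the RNA that silences an X chromosome. Lcn2 stood at 4931, 5230 and 4945 CPM in WT and at 6820, 8812 and 16684 CPM in mutants. Its log2 fold change was 1.02 ± 0.27 (edgeR adjusted p = 0.0233), and without WT replicates 1, 2 or 3 the adjusted p was 0.106, 0.0682 or 0.125. Xist stood between 1721 and 2495 CPM in WT and between 2966 and 4440 CPM in mutants (log2 fold change 0.80 ± 0.15, edgeR adjusted p = 0.00213).

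In the list of p21, CDK4/6, cyclin D and their partners, 4 of 14 genes were shared and higher and 1 was shared and lower, beside 2.05% and 3.9% of all genes tested. The list's median log2 fold change was 0.67. Cdkn1a stood at 17.8, 51.4 and 25.6 CPM in WT and at 57.7, 156 and 331 CPM (lowest, median, highest) in mutants, a log2 fold change of 2.22 ± 0.52 (edgeR adjusted p = 0.0105). WT replicate 2 and HER2 replicate 4 were the nearest samples. The adjusted p of Cdkn1a was 0.0757 without WT replicate 1 and 0.0861 without WT replicate 3. Ccnd1, the gene of cyclin D1, stood at 70.7, 120 and 55.5 CPM in WT and at 162, 297 and 545 CPM in mutants (log2 fold change 1.92 ± 0.38, edgeR adjusted p = 0.00367). The groups did not overlap, and 3 of the 4 HER2 samples stood lowest among mutants, between 162 and 183 CPM. Ccnd3, another cyclin D, stood between 34.1 and 35.9 CPM in WT and between 46.2 and 71.2 CPM in mutants, a log2 fold change of 0.79 ± 0.13. Ccne1, a cyclin of the entry into S phase, rose by 1.74 ± 0.40 (edgeR adjusted p = 0.00941, and 0.0746 without WT replicate 1).

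Rb1, the pocket protein that holds E2F factors until cyclin D kinases act on it, was the axis member that was lower. It stood at 603, 544 and 578 CPM in WT and at 94.6, 297 and 430 CPM in mutants, a log2 fold change of -1.13 ± 0.19 (edgeR adjusted p = 0.000812, and 0.0773 in the fit of 2 groups). All 13 mutant samples were below WT, and the 4 HER2 samples were lowest, at 94.6 to 234 CPM. The kinase Cdk6 and the factor E2f1 passed the test but overlapped WT, with log2 fold changes of 0.97 ± 0.25 and 0.67 ± 0.21 (edgeR adjusted p = 0.0177 and 0.0491). The adjusted p of Cdk6 was 0.13 without WT replicate 1 and 0.121 without WT replicate 3. That of E2f1 was between 0.0513 and 0.291 without any single sample of WT or double mutants, HER2 replicate 3, or PIK3CA replicate 1, 2 or 4, 0.0792 in the fit of 2 groups and 0.0732 with no filter on low counts. Cdk4 did not pass (0.23 ± 0.17, adjusted p = 0.418). Ccnd1 and Rb1 are among 25 of the 140 named genes that overlap a protein-coding gene in the annotation, where reads may be shared between the genes. In GRCm38, Cdkn1a lies at chr17:29090976-29100727, Ccnd1 at chr7:144929931-144939925 and Rb1 at chr14:73183673-73325822. Without WT replicate 1, 2 or 3, the axis held 2, 5 or 3 shared higher genes.

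**Figure D2:**
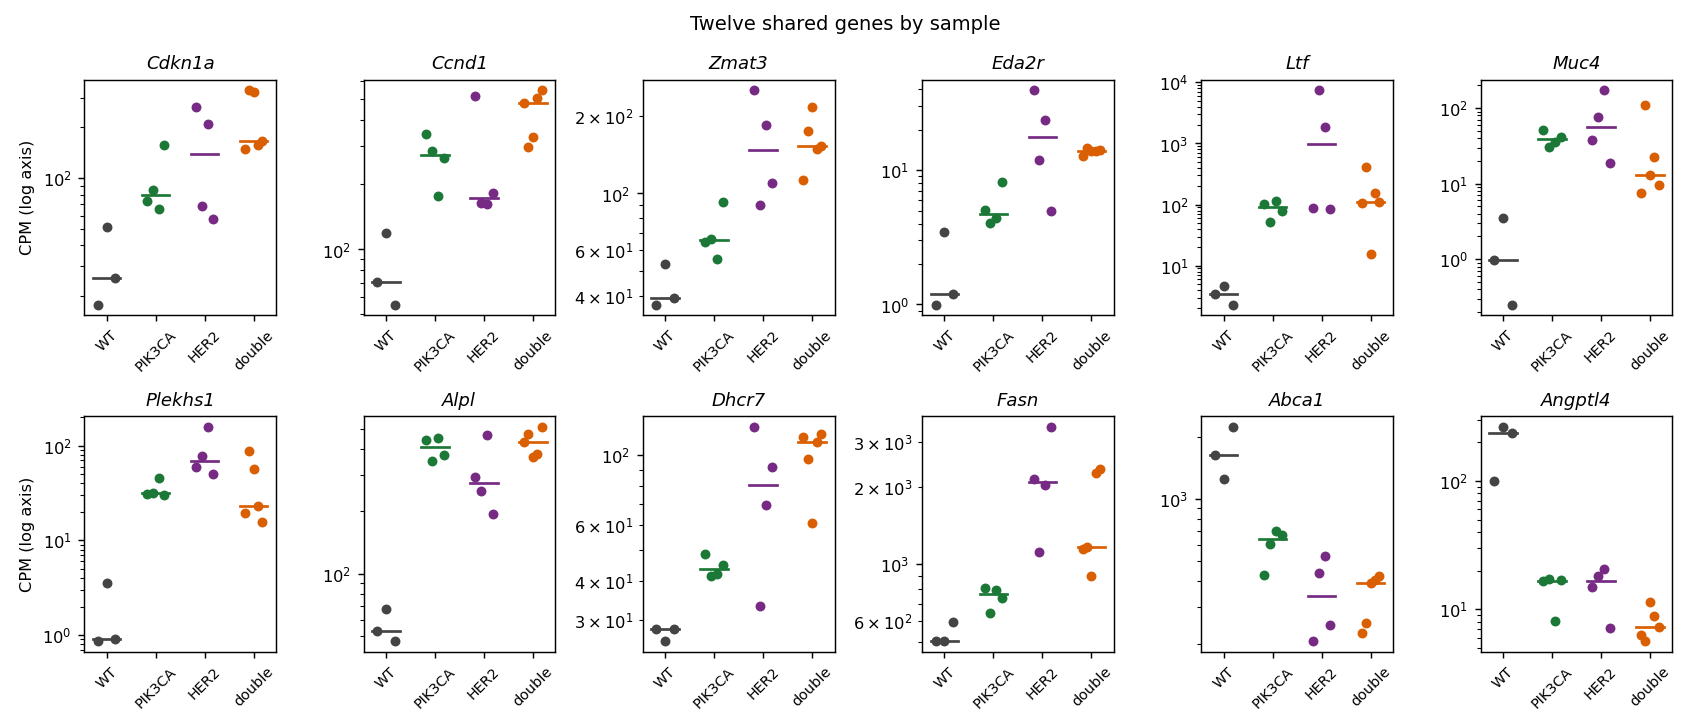
CPM on log axes for 12 shared genes, with a point for each sample and a line at the median of WT (n = 3), PIK3CA (n = 4), HER2 (n = 4) and double mutant (n = 5) organoids. In each of the 12 genes all mutant points lie on the same side of the WT points, which membership required. Cdkn1a has its lowest mutant at 57.7 CPM against a highest WT at 51.4 CPM, and Alpl at 193 against 67.7 CPM. The fold gap is narrower than that of Cdkn1a in Zmat3 and Fasn, and wider than that of Alpl in Plekhs1 and Angptl4.

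Genes that p53 is known to activate were often among the shared rises. Of 20 such genes, 8 were shared and higher and none was lower (10 passed the test, all higher), with a list median log2 fold change of 0.89. Over all genes tested, 2.05% were shared and higher and 4.21% were called higher. Zmat3, an RNA-binding p53 target, stood at 36.9, 53 and 39.2 CPM in WT and at 55.7, 112 and 252 CPM (lowest, median, highest) in mutants, a log2 fold change of 1.5004 ± 0.29 (edgeR adjusted p = 0.00277). Eda2r, a TNF receptor family member that binds ectodysplasin A2, stood at 0.996, 3.44 and 1.2 CPM in WT and at 4.07, 12.8 and 39.1 CPM in mutants (2.61 ± 0.53, edgeR adjusted p = 0.00467, and 0.052 without WT replicate 3). In both genes the PIK3CA samples lay nearest to WT at the median. The others were Aen (a nuclease, log2 fold change 1.23 ± 0.27), Bbc3 (the pro-death factor PUMA, 0.89 ± 0.21), Ccng1 (cyclin G1, 0.96 ± 0.22), Sesn2 (0.88 ± 0.18), Tnfrsf10b (a TRAIL receptor, 1.07 ± 0.22) and Btg2 (1.10 ± 0.33). Aen, Bbc3 and Ccng1 lost the call without WT replicate 1 (edgeR adjusted p = 0.0584, 0.0734 and 0.0776) and without WT replicate 3 (0.0638, 0.0554 and 0.0776), and Tnfrsf10b without WT replicate 3 (0.058). Btg2 lost it without any 1 of the WT samples, PIK3CA replicates 1, 3 or 4 or double replicate 3, with an edgeR adjusted p between 0.051 and 0.217, and with upper-quartile scaling (0.0501). The count of 8 became 4, 8 and 2 without WT replicates 1, 2 and 3. Mdm2, the p53 antagonist, did not pass (0.41 ± 0.18, adjusted p = 0.161), nor did Bax (0.52 ± 0.24, adjusted p = 0.187).

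Mitosis genes were higher in part. Of 24, 4 were shared and higher, beside 2.05% of all genes tested, and none lower. The test passed 8, all higher (4.21% of all genes), and the list's median log2 fold change was 1.4. Cenpa, the histone of centromeres, stood at 2.94, 4.66 and 5.37 CPM in WT and at 9.31, 11.8 and 15.9 CPM (lowest, median, highest) in mutants, a log2 fold change of 1.47 ± 0.21 (edgeR adjusted p = 0.000192). Bub1b, a spindle checkpoint kinase, rose by 1.81 ± 0.34, and Cdc20, the activator of the anaphase-promoting complex, by 1.41 ± 0.31 (edgeR adjusted p = 0.00238 and 0.00711; Cdc20 0.0581 without WT replicate 1). Ube2c, the ubiquitin-conjugating enzyme of that complex, rose by 1.85 ± 0.50 (edgeR adjusted p = 0.0264, and 0.149, 0.0819 and 0.0503 without WT replicates 1, 2 and 3). WT replicate 1 had the lowest summed level of the list, 62.7 CPM, and WT replicate 3 the highest of WT, 173 CPM, within the mutant range of 152 to 726 CPM. Mki67 did not pass (1.42 ± 0.64, adjusted p = 0.177). Of 23 DNA replication genes, edgeR and DESeq2 each called 0, and 3 had an unadjusted edgeR p under 0.05.

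Promoters of these 4 mitosis genes, whose common rise was a condition of membership, were searched for the cell-cycle genes homology region (CHR). The search was for TTTGAA on either strand, from 250 bases before to 50 bases after the start in RefSeq's promoter sequences (GRCm38.p6). The element was present in 5466 of 27025 promoters (20.2%), in 15 of 20 promoters found for the mitosis list and in all 4 of the shared genes. The 30 bases around a match in each are shown, with the motif in capitals and read along the gene's strand.
Cenpa: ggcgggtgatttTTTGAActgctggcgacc
Bub1b: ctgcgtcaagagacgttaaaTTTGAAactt
Cdc20: agacagttgggtTTTGAAggagccaatgaa
Ube2c: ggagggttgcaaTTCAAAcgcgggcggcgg
The windows lie at chr5:30666890-30666919 (Cenpa, plus strand), chr2:118598231-118598260 (Bub1b, plus strand), chr4:118437344-118437373 (Cdc20, minus strand) and chr2:164769888-164769917 (Ube2c, plus strand). In Ube2c the capitals show the motif's reverse complement. These matches describe letters in the promoters, and no binding was measured.

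Genes of fatty acid and cholesterol synthesis held the most shared rises of any list. Of 26, 11 were shared and higher, beside 2.05% of all genes tested, and none lower. The test passed 13, all higher (4.21% of all genes), and the median log2 fold change was 0.95. Over these 11 genes, which passed the separation rule, the highest WT level was 1.04 to 1.39 times the lowest. Over all 26 the summed level was 16347, 8328 and 15847 CPM in WT replicates 1 to 3 and 9856 to 26474 CPM in mutants, so the sums overlapped. Dhcr7, an enzyme of the last steps of cholesterol synthesis, stood at 28.2, 25.7 and 28.2 CPM in WT and at 33.4, 69.4 and 122.95 CPM (lowest, median, highest) in mutants, a log2 fold change of 1.37 ± 0.28 (edgeR adjusted p = 0.00516). HER2 replicate 2 was the lowest mutant sample and HER2 replicate 1 the highest. Hmgcs1, an early enzyme of the pathway, rose by 1.19 ± 0.28 (edgeR adjusted p = 0.0119, and 0.0681 and 0.0719 without WT replicate 1 or 3).

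On the fatty acid side, Fasn, the fatty acid synthase, stood at 502, 505 and 598 CPM in WT and at 649, 1151 and 3412 CPM in mutants (log2 fold change 1.35 ± 0.32, edgeR adjusted p = 0.0126). Scd2, a stearoyl-CoA desaturase, stood at 755, 765 and 854 CPM in WT and at 1137, 1422 and 3193 CPM in mutants (1.11 ± 0.27, edgeR adjusted p = 0.014). Neither group overlapped WT, but both calls rested on 3 WT samples: the adjusted p was 0.0733, 0.0558 and 0.0616 for Fasn and 0.078, 0.0583 and 0.0703 for Scd2 without WT replicates 1, 2 and 3, and 0.0696 for Fasn in the fit of 2 groups. Srebf2, the factor that activates sterol genes, rose by 0.61 ± 0.14, and Acaca, Fdft1 and Lss by 0.62 ± 0.17, 0.70 ± 0.21 and 0.92 ± 0.24. Without WT replicates 1, 2 and 3 the edgeR adjusted p was 0.0969, 0.116 and 0.154 for Acaca, 0.133, 0.0979 and 0.217 for Fdft1 and 0.112, 0.0687 and 0.104 for Lss, and Srebf2 had 0.0709 without WT replicate 3. Fdft1 also lost the call without any 1 of the PIK3CA samples or double replicates 4 or 5 (0.0512 to 0.0601), and in the fit of 2 groups (0.0586). Srebf1, the factor of fatty acid genes, did not pass (-0.83 ± 0.34, adjusted p = 0.135), though it passed as lower without HER2 replicate 4 (0.029). Without WT replicates 1, 2 and 3 the count of 11 became 5, 6 and 4.

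The sterol regulatory element, searched as TCACCCCAC on either strand, was present in 166 of 27025 promoters (0.614%) and in 1 of 16 promoters found for the lipid list, that of Hmgcs1 (chr13:119690202-119690231, plus strand, GRCm38.p6, the window starting before the gene). It is shown because Hmgcs1 was 1 of the 6 shared lipid genes with a promoter in the table. The other 5 did not hold these letters in this window.
Hmgcs1: tacgtcaccgtcTCACCCCACttcccaggt

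Genes of fatty acid uptake and burning and of cholesterol export went the other way. Of 21 targets of PPAR and LXR factors and their like, none was shared and higher and 7 were shared and lower (1 and 10 passed the test), with a median log2 fold change of -1.36. Shared lower genes made up 3.9% of all genes tested, and 7.03% were called lower. Angptl4, an inhibitor of lipoprotein lipase, had the lowest p among shared genes averaging at least 10 CPM on their higher side. It stood at 99.4, 262 and 237 CPM in WT and at 5.64, 11.4 and 20.5 CPM (lowest, median, highest) in mutants, a log2 fold change of -4.04 ± 0.27 (edgeR adjusted p = 1.04e-06). Cpt1a, which admits fatty acids to mitochondria, stood at 103, 183 and 177 CPM in WT and at 14.7, 31.1 and 42.3 CPM in mutants (-2.40 ± 0.23, edgeR adjusted p = 1.06e-05). For these 2 genes WT replicate 1 was the lowest of WT, and the mutants were well below it.

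Abca1, the cholesterol exporter, stood at 1635, 1250 and 2221 CPM in WT and at 205, 425 and 701 CPM in mutants, a log2 fold change of -2.03 ± 0.24 (edgeR adjusted p = 4.74e-05). Abcg1, a second exporter, fell by 3.20 ± 0.31 and Plin2, a coat protein of lipid droplets, by 1.39 ± 0.22. Apoe, the apolipoprotein E that macrophages also make, stood at 633, 146 and 544 CPM in WT and at 7.43, 88.7 and 126 CPM in mutants (-2.70 ± 0.58, edgeR adjusted p = 0.00675, and 0.0597 and 0.0542 without WT replicate 1 or 3). Fabp4, a fatty acid carrier of fat cells and macrophages, stood between 2.52 and 13.1 CPM in WT and at or below 0.849 CPM in mutants. Abca1, Abcg1, Plin2, Apoe and Fabp4 had WT replicate 2 as the lowest WT sample, as did the summed macrophage markers described next (963 CPM in WT replicate 2, 5469 CPM in WT replicate 3, 35.1 to 406 CPM in mutants, Cd163 included), whereas Angptl4 and Cpt1a had WT replicate 1. The part of macrophage content in these lipid genes was not tested. Without WT replicates 1, 2 and 3 the count of 7 became 6, 9 and 6.

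**Figure D3:**
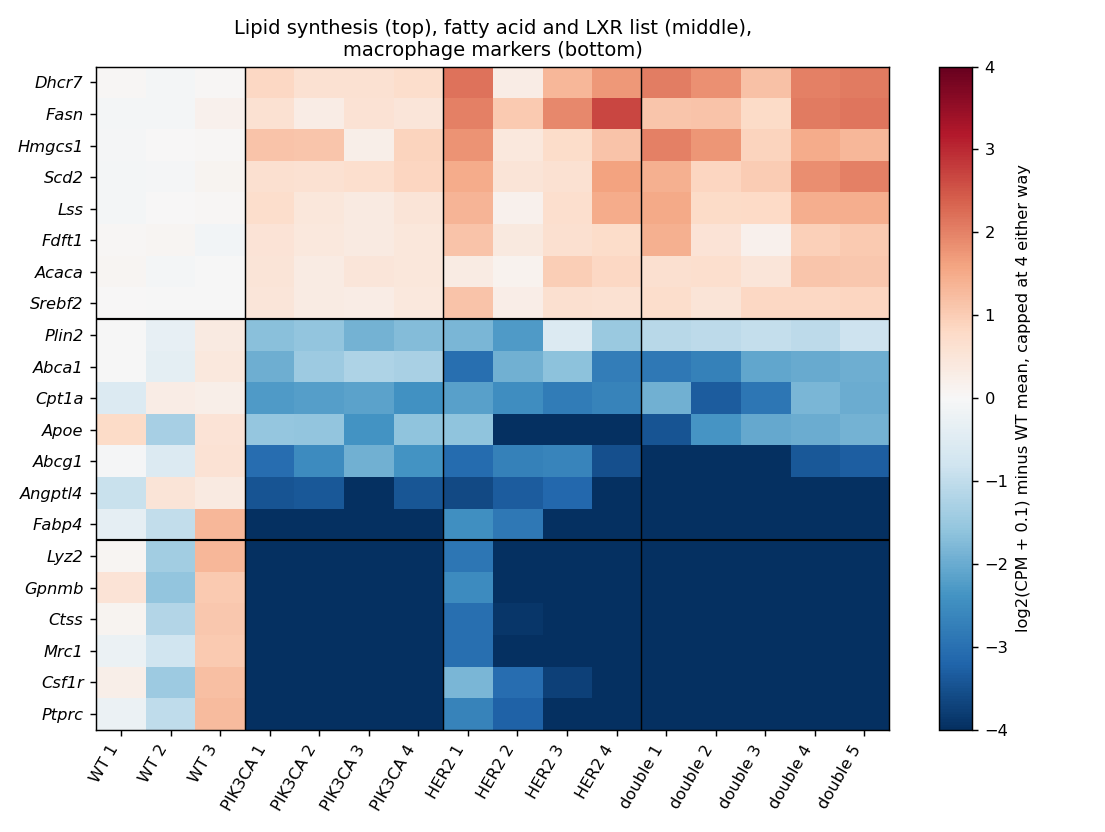
Log2(CPM + 0.1) minus the WT mean in 16 samples (columns) for 8 lipid synthesis genes (top), 7 genes of fatty acid use and cholesterol export (middle) and 6 macrophage markers (bottom), capped at 4 either way. The top block is red in all 13 mutant samples, and the middle and bottom blocks are blue. The genes were drawn from the shared genes, so these colors in mutants were set by the rule of membership. In the full lists, 13 of 26 synthesis genes and 10 of 21 genes of the fatty acid list did not pass the test. Among WT samples replicate 2 is palest or blue for macrophage markers and Apoe.

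The largest shared falls were in macrophage genes. Of 23 macrophage and myeloid markers, 19 were shared and lower (21 passed the test as lower), with a list median log2 fold change of -6.82, and 1, Cd163, was shared and higher. The shares over all genes tested were 3.9% and 7.03% for lower and 2.05% for shared and higher. In bulk samples, fewer cells of a type and less RNA per cell cannot be told apart. Lyz2, the macrophage lysozyme, stood at 1109, 405 and 2649 CPM in WT and at 0.0389, 0.2 and 142 CPM (lowest, median, highest) in mutants, a log2 fold change of -8.88 ± 1.14 (edgeR adjusted p = 9.16e-05). HER2 replicates 1 and 2 held 142 and 58.2 CPM and were the only mutant samples above 10. Gpnmb, a lysosomal membrane glycoprotein of macrophages, fell from 570, 132 and 807 CPM in WT to 0.0972, 0.443 and 68.7 CPM in mutants (-7.91 ± 0.92), and Ctss, cathepsin S, from 208, 85 and 409 CPM to 0.0196, 0.233 and 23.6 CPM (-7.88 ± 0.94). The macrophage receptor Csf1r had a log2 fold change of -4.35 ± 0.40, and Mrc1 (CD206) and Ptprc (CD45) had -7.09 ± 0.67 and -6.82 ± 0.69. Counts of Lyz1 and Lyz2 are uncertain, because the genes are close copies.

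Other macrophage genes completed the 8 largest falls. C1qb of complement C1q stood between 16.9 and 159 CPM in WT and reached at most 14 CPM in mutants. Atp6v0d2, a proton pump subunit, stood at 26.9, 11.9 and 47.2 CPM in WT and at 1.39 CPM at most in mutants. Lyz1, Clec4n (the lectin Dectin-2) and Ear2 (a secreted ribonuclease) had a mutant median of 0 CPM, where 3 counts corresponded to 0.0468 to 0.0659 CPM, and their highest mutant levels were 1.74, 2.36 and 0.598 CPM against lowest WT levels of 6.26, 9.93 and 2.88 CPM. No fold is given for them.

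The summed level of the 23 markers was 963 to 5469 CPM in WT and 35.1 (lowest), 82.7 (median) and 406 CPM (highest, HER2 replicate 1) in mutants. Without Cd163, which rose, the other 22 summed to 955 to 5464 CPM in WT and to 14.4, 38.3 and 376 CPM in mutants, so more of the median mutant sum came from Cd163 than from the rest. Of the defining markers, Adgre1 was at 0 in 3 mutant samples, C1qa in 4 and Itgam in 6, and none was at 0 in WT. For 18 of the 19 lower markers the WT samples stood in the order replicate 2, replicate 1, replicate 3 with at least a 2-fold range. The same order and range held for 244 of the 947 shared lower genes (25.8%), for 1.41% of the shared higher genes and for 4.37% of all genes tested. The marker count was 19, 21 and 19 without WT replicates 1, 2 and 3.

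Cd163, a scavenger receptor known from macrophages, was the exception. It stood at 3.57, 7.62 and 4.8 CPM in WT and at 20 (lowest), 48.5 (median) and 65.2 CPM (highest) in mutants, a log2 fold change of 2.93 ± 0.23 (edgeR adjusted p = 4.24e-06). WT and mutants did not overlap, and HER2 organoids were lower than PIK3CA and double mutants, at 22.8 ± 4.47 CPM (SD, n = 4) against 56.2 ± 7.86 (n = 4) and 52.2 ± 5.79 CPM (n = 5). The edgeR adjusted p was 0.00288 for HER2 against PIK3CA and 0.00647 for double against HER2.

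Some fibroblast and endothelial markers were also lower. Of 18 fibroblast markers tested, 6 were shared and lower and none higher (11 passed the test as lower), with a median log2 fold change of -3.06. Among all genes tested, 3.9% were shared and lower and 7.03% were called lower. Apod, apolipoprotein D, stood at 1561, 1330 and 1735 CPM in WT and at 0.336, 29.2 and 256 CPM (lowest, median, highest) in mutants, a log2 fold change of -5.74 ± 0.87 (edgeR adjusted p = 0.000384). Pdgfra and Pdgfrb, the PDGF receptors, had -2.31 ± 0.39 and -4.07 ± 0.56, the matrix protein Comp -4.61 ± 0.47, and Thy1 -4.37 ± 0.84. Dpt was at 0 in 10 mutant samples. The collagen gene Col1a1 passed the test (edgeR adjusted p = 0.00616, and 0.0512 in the fit of 2 groups) but overlapped WT, at 133 to 999 CPM in WT and 9.98 to 352 CPM in mutants. The 7 markers that did not pass, among them Postn, Fbln1 and Dcn, each had a mutant sample above every WT sample. Postn, the matrix protein periostin, stood between 344 and 971 CPM in WT and between 7.28 and 1536 CPM in mutants (-0.63 ± 0.63, edgeR adjusted p = 0.574). The summed fibroblast level was 2535 to 4413 CPM in WT and 55.3 to 1730 CPM in mutants, highest in double replicate 3. Without WT replicate 1 the count of 6 became 10.

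Of 9 endothelial markers tested, 3 were shared and lower (6 passed the test as lower), namely Vwf, Erg and Ptprb. Over all genes tested, 3.9% were shared and lower and 7.03% were called lower. Vwf, von Willebrand factor, stood at 4, 4.9 and 24.5 CPM in WT and at 0.227, 0.72 and 1.54 CPM in mutants, a log2 fold change of -3.85 ± 0.43, and -2.53 without WT replicate 3. The summed endothelial level was low throughout, at 13.7 to 36.1 CPM in WT and 2.44 to 7.04 CPM in mutants. The summed level of 14 lymphocyte genes was 3.02 to 3.46 CPM in WT and 1.08 to 3.79 CPM in mutants. Only 5 of them had enough counts to be tested, of which 1 was called lower and 0 were shared. Summed luminal keratins and adhesion genes were 2894 to 3218 CPM in WT and 2891 to 7358 CPM in mutants. The part of these cell types in the other falls was not tested.

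**Figure D4:**
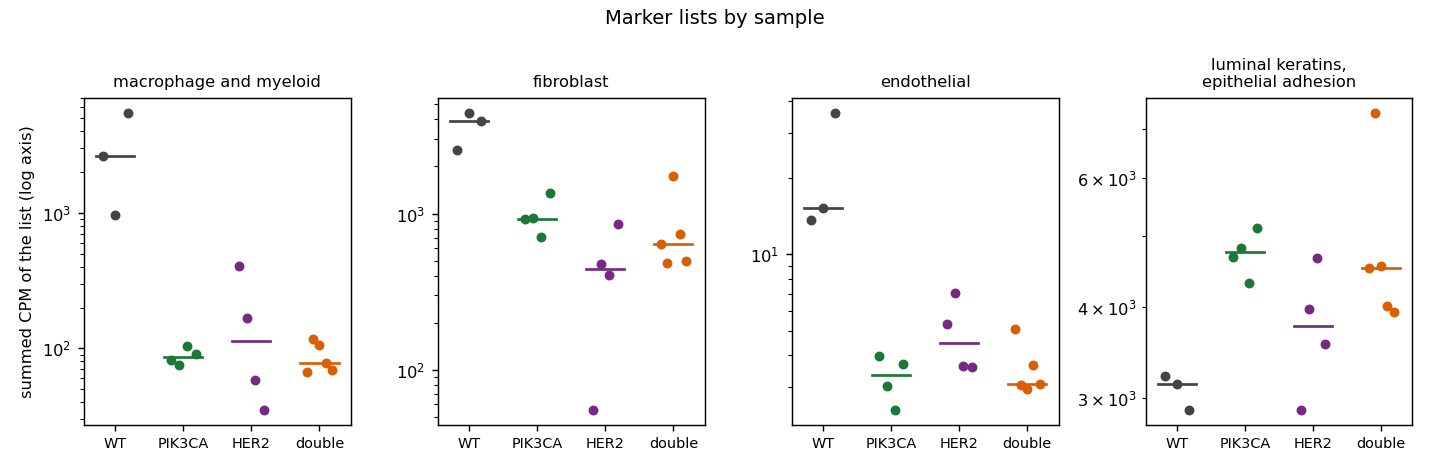
Summed CPM of 4 marker lists by sample on log axes, Cd163 included among the macrophage markers, with a line at the median of each genotype. Macrophage, fibroblast and endothelial sums of all 13 mutant samples lie below those of the 3 WT samples, and the luminal sums overlap at their lower end.

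Matrix, signalling and immune genes were also among the falls. Svep1, a large matrix protein, stood at 7.18, 48.2 and 59.9 CPM in WT and at 0.189, 0.461 and 2.89 CPM (lowest, median, highest) in mutants (log2 fold change -5.92 ± 0.47, edgeR adjusted p = 4.24e-06). Plxnc1, a semaphorin receptor, fell by 4.47 ± 0.32 and Dock10, a guanine nucleotide exchange factor of white blood cells, by 6.96 ± 0.57, both with WT replicate 2 lowest and replicate 3 highest. Of 23 matrix proteases and inhibitors, 5 were shared and lower and 1 was higher, beside 3.9% and 2.05% of all genes tested. Mmp12, the macrophage elastase, stood at 115, 112 and 126 CPM in WT and at 0, 0.739 and 21.8 CPM in mutants (-5.87 ± 0.97). Mmp11 had -2.76 ± 0.30, Adamts2, which trims procollagen, -5.19 ± 0.71, and the inhibitor Timp2 -1.32 ± 0.24. The protease Adamts9 was higher (1.87 ± 0.42, edgeR adjusted p = 0.00866, and 0.0636 and 0.0634 without WT replicate 1 or 3).

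Of 27 collagens, Col15a1 and Col12a1 were shared and lower (log2 fold change -4.44 ± 0.84 and -2.04 ± 0.44) and Col4a5, a basement membrane chain, was higher (1.24 ± 0.25, edgeR adjusted p = 0.00394). These 2 lower and 1 higher of 27 stand beside 3.9% and 2.05% of all genes tested. Without WT replicate 3 the adjusted p was 0.0547 for Col12a1 and 0.0512 for Col4a5, and in the fit of 2 groups it was 0.0561 for Col15a1. Without WT replicate 1, 7 collagens were shared and lower. The laminin chains moved in opposite directions, Lama2 with -5.14 ± 0.79 and Lama4 with 1.14 ± 0.19, and the integrin Itgb5 had -0.86 ± 0.13. Lama4 stood between 34.4 and 62.6 CPM in WT and between 83.7 and 176 CPM in mutants.

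Of 25 chemokines and cytokines tested, 5 were shared and lower and 1 was higher, beside 3.9% and 2.05% of all genes tested. Ccl2 and Ccl7, which draw monocytes, stood at 5.42 to 22.5 and 2.97 to 12.5 CPM in WT and at no more than 1.72 and 1.56 CPM in mutants (log2 fold change -3.93 ± 0.51 and -4.27 ± 0.59). Cxcl12, a stromal chemokine, stood at 78.8, 168 and 114 CPM in WT and at 4.51, 15.2 and 36.4 CPM in mutants (-2.93 ± 0.31, edgeR adjusted p = 2.09e-05). Cxcl14 had -2.94 ± 0.60 (edgeR adjusted p = 0.0047, and 0.103 without WT replicate 2), and Il18 -3.01 ± 0.53 (edgeR adjusted p = 0.0713 without WT replicate 3). Ccl20 was higher but low, at 0.133 to 9.96 CPM in mutants and at most 0.08 CPM in WT (edgeR adjusted p = 0.00606, and 0.0528 without WT replicate 3). Cd74 and H2-Aa, genes of MHC class II presentation, were the 2 shared lower genes of 19 in antigen presentation, at 1.56 to 9.93 and 0.385 to 2.86 CPM in WT and at most 1.29 and 0.135 CPM in mutants. Of 24 interferon-stimulated genes, edgeR and DESeq2 each called 0, and 1 had an unadjusted edgeR p under 0.05.

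Antimicrobial and acute-phase genes moved both ways, whereas the luminal progenitor and luminal keratin lists held no gene called lower. Of 18 antimicrobial and acute-phase genes, 3 were shared and higher (Ltf, Lcn2 and Lbp) and 1 was lower, beside 2.05% and 3.9% of all genes tested. Lbp, the lipopolysaccharide-binding protein, stood at 161, 309 and 164 CPM in WT and at 365, 619 and 1982 CPM (lowest, median, highest) in mutants (log2 fold change 1.72 ± 0.32, edgeR adjusted p = 0.00201). Hp, haptoglobin, stood at 3337, 1398 and 1883 CPM in WT and at 78.4, 468 and 983 CPM in mutants (-2.29 ± 0.47, edgeR adjusted p = 0.00489, and 0.0642 without WT replicate 1). The summed level of 20 luminal progenitor and alveolar genes was 13372 to 16782 CPM in WT and 18959 to 75332 CPM in mutants. Of these 20, 9 passed the test, all higher, beside 4.21% of all genes tested, and 3 were shared and higher. Besides Ltf and Lcn2 this was Wfdc18, a milk-type secreted protein (2.19 ± 0.45, edgeR adjusted p = 0.00482, and 0.0534 without WT replicate 3). Of 23 mucin and glycosylation genes, Muc4 and the initiating enzyme Galnt7 (1.02 ± 0.17) were shared and higher. Of 16 luminal keratin and adhesion genes, 2 were shared and higher: Cldn1, a tight junction protein, with 2.96 ± 0.57, and Krt7 with 1.56 ± 0.37 (edgeR adjusted p = 0.0114, and 0.0607 and 0.0945 without WT replicate 1 or 3).

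Of 13 hormone-sensing genes, 2 were shared and lower, and 2 others passed the test as higher but overlapped WT (list median log2 fold change -0.14). Over all genes tested, 3.9% were shared and lower, 7.03% were called lower and 4.21% were called higher. Esr1, the estrogen receptor, stood at 31.9, 44 and 29.6 CPM in WT and at 9.8, 19 and 25.5 CPM in mutants (log2 fold change -0.84 ± 0.19, edgeR adjusted p = 0.00922, and 0.0901 without WT replicate 2). Greb1, a known estrogen target, stood at 35.5, 25.6 and 13 CPM in WT and at 0.231, 1.37 and 4.44 CPM in mutants (-4.10 ± 0.57, edgeR adjusted p = 0.000182). Of 22 basal genes, Myh11 and Actg2 of smooth muscle were shared and lower (-2.07 ± 0.24 and -2.02 ± 0.50). In that list 4 genes passed the test as lower and 1 as higher, with a median log2 fold change of -0.09. Its summed level overlapped, at 1470 to 2358 CPM in WT and 1007 to 2982 CPM in mutants. The 8 smooth muscle and pericyte markers (3 called lower, 1 higher) also overlapped in sum, at 257 to 377 CPM in WT and 242 to 679 in mutants. Actg2 was at or below 0.542 CPM in every sample, and its adjusted p was 0.0875, 0.0604 and 0.0681 without WT replicates 1, 2 and 3. Zeb2, a regulator of mesenchymal state that macrophages and fibroblasts also use, was the shared member of 10 such regulators (-4.74 ± 0.56).

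Glycolysis genes were higher in 3 of 25 cases and lower in none (10 passed the test, all higher, and 9 were shared without WT replicate 2). The shares over all genes tested were 2.05% shared and higher, 3.9% shared and lower and 4.21% called higher. Ldha, lactate dehydrogenase A, stood at 226, 321 and 236 CPM in WT and at 382, 638 and 1056 CPM (lowest, median, highest) in mutants, a log2 fold change of 1.32 ± 0.28 (edgeR adjusted p = 0.00592, and 0.0586 without WT replicate 3). Hk2, a hexokinase, rose by 1.59 ± 0.32 and Tpi1, triosephosphate isomerase, by 1.41 ± 0.30 (edgeR adjusted p = 0.00448 and 0.00657; Tpi1 0.0581 and 0.0671 without WT replicate 1 or 3). WT replicate 2 was the highest WT sample for all 3. Of 28 redox genes, Gstt1, a glutathione transferase, was higher (1.69 ± 0.30), and Gpx3, a secreted glutathione peroxidase, and Sod3 were lower (-3.17 ± 0.26 and -4.11 ± 0.52).

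Some pathway genes were shared, beside 2.05% shared and higher and 3.9% shared and lower over all genes tested. Of 23 PI3K genes, Foxo3 (log2 fold change 0.74 ± 0.16) and the regulatory subunit Pik3r3 (2.39 ± 0.60) were higher, and Pik3cd, the catalytic subunit of white blood cells, was lower (-2.76 ± 0.33). Foxo3 had an edgeR adjusted p of 0.0533 without WT replicate 3, and Pik3r3 of 0.0727, 0.0581 and 0.111 without WT replicates 1, 2 and 3. Of 18 ERK targets, the phosphatases Dusp4 and Dusp5 were higher (0.63 ± 0.13 and 1.64 ± 0.38) and Epha4 was lower (-1.27 ± 0.33). Without WT replicate 3 the adjusted p was 0.0757 for Dusp4 and 0.0951 for Dusp5, and that of Epha4 was 0.0971, 0.062 and 0.077 without WT replicates 1, 2 and 3. The ErbB ligand gene Nrg4 was the shared member of 16 ErbB genes (-1.66 ± 0.21).

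In the Wnt list, 2 of 29 genes were shared and lower. Over all genes tested, 3.9% were shared and lower and 2.05% shared and higher. Lgr5, the R-spondin receptor and stem cell marker, stood at 72.3, 59.6 and 27.7 CPM in WT and at 0.377, 8.87 and 27.2 CPM (lowest, median, highest) in mutants, a log2 fold change of -2.96 ± 0.54 (edgeR adjusted p = 0.00195, and 0.069 in the fit of 2 groups). WT replicate 3 nearly met the highest mutant, PIK3CA replicate 1. Rspo1 was low, with -2.52 ± 0.52 and an edgeR adjusted p of 0.121 without WT replicate 3. Of 27 TGF-beta and BMP genes, the ligand Tgfb2 was higher (1.67 ± 0.34, edgeR adjusted p = 0.00444, and 0.0526 without WT replicate 3). Smad9 (-3.38 ± 0.53) and the receptor Tgfbr1 (-0.59 ± 0.16, edgeR adjusted p = 0.0228) were lower, and Tgfbr1 had 0.0666 and 0.232 without WT replicate 1 or 3 and 0.0607 in the fit of 2 groups. Notch1 and Notch2 were lower by 0.66 and 0.69 on the log2 scale (edgeR adjusted p = 0.0391 and 0.0153), and without WT replicate 3 their adjusted p was 0.201 and 0.126. Notch1 also lost the call without WT replicates 1 or 2 or PIK3CA replicates 1, 2 or 4 (0.0558 to 0.176), in the fit of 2 groups (0.0612) and after adjustment for transcript length and GC (0.0659), and Notch2 without WT replicate 1 (0.0801).

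The remaining cell lists held some shared genes, beside 2.05% higher and 3.9% lower over all genes tested. Of 9 nerve genes, the cadherin Cdh19 was higher (log2 fold change 2.86 ± 0.52) and 1 gene was lower. Of 7 fat cell genes tested, Fabp4 and Plin1 were lower, and Plin1, at or below 0.834 CPM in every sample, had an edgeR adjusted p of 0.0375 that became 0.278 without WT replicate 3. It was also past 0.05 without WT replicates 1 or 2, PIK3CA replicates 1, 2 or 4 or HER2 replicate 3 (0.0525 to 0.0916), with no filter on low counts (0.0591) and in limma (0.066). Of the 13 mitochondrially encoded genes, edgeR and DESeq2 each called 0, and 5 had an unadjusted edgeR p under 0.05, all lower. Among the most abundant falls, Fth1, the ferritin heavy chain, stood at 7949, 7668 and 8691 CPM in WT and at 1465, 3701 and 5722 CPM in mutants (-1.15 ± 0.26, edgeR adjusted p = 0.00874, and 0.0666 without WT replicate 3). Psap, a lysosomal activator of lipid breakdown, had -0.69 ± 0.17 (edgeR adjusted p = 0.0126, 0.14 without WT replicate 3 and 0.0705 in the fit of 2 groups).

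**Figure D5:**
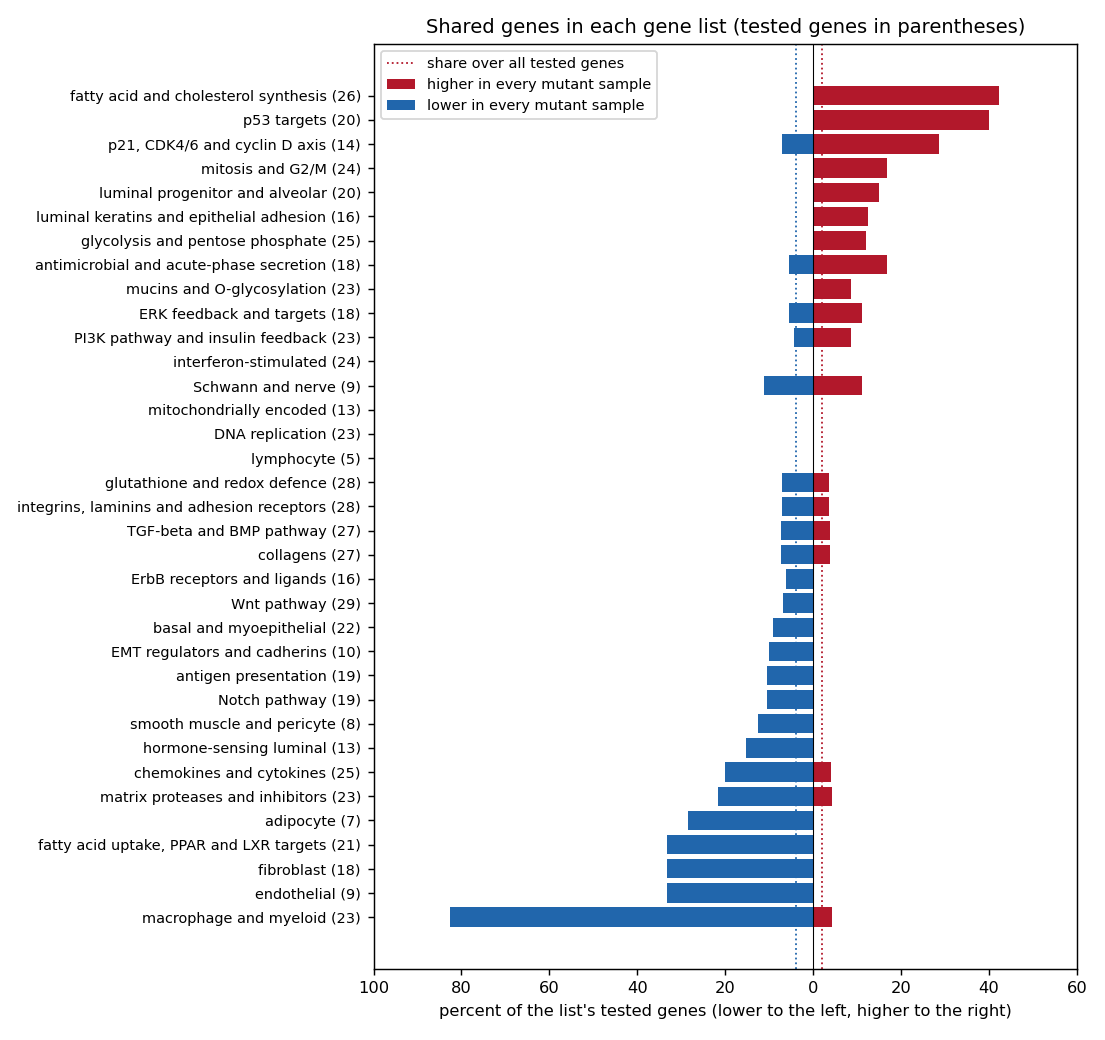
Percent of each list's tested genes that were shared and higher (red, to the right) or shared and lower (blue, to the left), with dotted lines at the 2.05% and 3.9% of all genes tested. The synthesis list of 26 genes (11 higher) and the p53 list of 20 (8 higher) stand at the top, and the macrophage list of 23 (19 lower) at the bottom.

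Although shared in direction, some changes differed in size among the 3 mutant genotypes. A test among the mutant genotypes, in which WT samples do not enter the contrasts, found a difference in 155 of the 1443 shared genes (10.7%) at an adjusted p under 0.05 (edgeR), beside 5.16% of all genes tested. Of 56 such genes that were higher, HER2 organoids lay farthest from WT in 32, double mutants in 20 and PIK3CA organoids in 4. Of 99 that were lower, double mutants lay farthest in 61, HER2 in 25 and PIK3CA in 13. HER2 and PIK3CA organoids differed in 99 shared genes (4.41% of all genes tested were called), double and HER2 in 76 (2.5%) and double and PIK3CA in 26 (0.672%). HER2 lay farther from WT than PIK3CA in 78 of the 99, and double mutants farther than PIK3CA in 24 of the 26. The count of 155 was 95 when only the 13 mutant samples were fitted, and fell to between 74 and 102 when PIK3CA replicate 1, 2, 3 or 4 or double replicate 5 was left out. With replicate numbers added to the fit as a block it was 41, and DESeq2 gave 344.

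Rb1 was lower in HER2 (148 ± 60.03 CPM, SD, n = 4) than in PIK3CA (362 ± 54.6 CPM, n = 4) and double mutants (341 ± 55.9 CPM, n = 5), with edgeR adjusted p of 0.00586 and 0.00961. Gpx3 was lower in double mutants (3.66 ± 1.55 CPM) than in PIK3CA (13.7 ± 6.20 CPM) and HER2 organoids (9.40 ± 3.23 CPM), with edgeR adjusted p of 0.0211 and 0.0413. Among macrophage markers, 15 of the 20 shared genes differed among mutants, and the summed level of the list without Cd163 was highest in HER2 replicates 1 and 2 (376 and 147 CPM), with 14.4 to 70.4 CPM in the other 11 mutant samples. Lyz2 in HER2 exceeded double mutants by a log2 fold change of 8.11 ± 1.73 (edgeR adjusted p = 0.0239), carried by HER2 replicates 1 and 2. Cdkn1a (adjusted p = 0.24), Ccnd1 (0.28) and Alpl (0.27) did not pass this test among mutants.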

How the data were processed

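RNA sequencing of 16 mouse mammary organoid samples was analysed. Per the submitters' processing notes, bcl2fastq 2.20, STAR 2.0.4b, Subread, featureCounts 1.4.5 and DESeq2 1.33.5 were used, with build mm10. Strandedness is not given in the sources used here, so counts of overlapping genes are uncertain. The authors deposited whole-number counts per Ensembl gene, and a second table of normalized counts. Each deposited normalized value (treated as signal) was a count divided by the sample's size factor (largest relative difference 4.99e-10). Of 55774 entries, 287 repeats of a gene were dropped. Positions come from GENCODE M21 (GRCm38, the same assembly as mm10).

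edgeR 4.0.16 (R 4.3.3) kept genes with filterByExpr and scaled libraries by TMM. One quasi-likelihood fit over all 16 samples, by genotype, gave the mean of the mutant genotypes minus WT and the differences among mutants. P-values are two-sided and adjusted by Benjamini-Hochberg over all genes tested. SE is the absolute log2 fold change divided by the square root of F. Replicate numbers were not used to pair samples in this fit, because the labels do not say what they mean. Alternatives used DESeq2 1.42.0, limma 3.58.1, other scalings, filters and designs, and left out each sample. The main fit of each package was tested on simulated data. The fit of the mutant samples only and the other scalings and filters were not.

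Genes named were, per direction, among shared genes averaging at least 10 CPM on the higher side, the 8 largest changes, the 4 lowest p-values and the 4 most abundant, up to 3 shared members of each of 35 lists, and 6 set genes. 36 others were chosen after their values were seen. The members, lists and rule were chosen with earlier results of these data known. A few genes that the rule selects are not reported here.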

Additional observations from a re-analysis of the deposited data

Results flagged for a closer look

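In 32 of 396 groups of 4 or 5 mutant samples examined for the named genes (8.08%), 1 sample stood far from the others of its genotype by Dixon's criterion, which chance meets in about 1 in 20 groups. For the shared genes these samples lie on the mutant side of WT by the rule of membership. PIK3CA replicate 1 lay far above the other samples of its genotype for Il18 (0.191 CPM, the others 0.0357 to 0.0443) and Pak6 (51.5 CPM, the others 28.4 to 30). PIK3CA replicate 3 lay far above the other samples of its genotype for Apod (256 CPM, the others 53.4 to 62.1) and Plekhs1 (45.5 CPM, the others 30.4 to 31.9). PIK3CA replicate 3 lay far below the other samples of its genotype for Angptl4 (8.19 CPM, the others 16.6 to 17.2), Apoe (70.1 CPM, the others 121 to 126) and Pglyrp1 (16.8 CPM, the others 24.3 to 24.7). PIK3CA replicate 4 lay far above the other samples of its genotype for Dpt (0.232 CPM, the others at 0), Sesn2 (54.4 CPM, the others 40.3 to 41.6) and Tnfrsf10b (21.2 CPM, the others 16.3 to 16.9).

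HER2 replicate 1 lay far above the other samples of its genotype for Apoe (121 CPM, the others 7.43 to 9.66), Ccnd1 (512 CPM, the others 162 to 183) and Cd163 (29.5 CPM, the others 20 to 21). HER2 replicate 1 lay far below the other samples of its genotype for Col12a1 (4.88 CPM, the others 74 to 110). HER2 replicate 3 lay far above the other samples of its genotype for Pak6 (50.8 CPM, the others 34.4 to 36.3). HER2 replicate 3 lay far below the other samples of its genotype for Ccl2 (0.089 CPM, the others 1.2 to 1.72). HER2 replicate 4 lay far below the other samples of its genotype for H2-Aa (0 CPM, the others 0.111 to 0.135), Notch1 (361 CPM, the others 666 to 748) and Psap (705 CPM, the others 1196 to 1264).

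Double mutant replicate 1 lay far below the other samples of its genotype for Apoe (33.6 CPM, the others 72.5 to 98.7) and Dock10 (0 CPM, the others 0.0778 to 0.126). Double mutant replicate 2 lay far above the other samples of its genotype for Lcn2 (13658 CPM, the others 7817 to 8348) and Tgfb2 (105 CPM, the others 74.7 to 81). Double mutant replicate 2 lay far below the other samples of its genotype for Hp (78.4 CPM, the others 352 to 599), Lpar6 (15.5 CPM, the others 22.3 to 25.1) and Mmp11 (2.41 CPM, the others 3.55 to 3.95). Double mutant replicate 3 lay far above the other samples of its genotype for Greb1 (3.38 CPM, the others 0.231 to 0.369). It was also the only double mutant with any Lyz1, at 0.0196 CPM, which is under the level of 3 counts and cannot be told from the 0 of the others. Double mutant replicate 3 lay far below the other samples of its genotype for Dhcr7 (61.3 CPM, the others 97.6 to 117) and Tgfbr1 (33.6 CPM, the others 40.8 to 42.1). Double mutant replicate 4 lay far below the other samples of its genotype for Cdh19 (5.62 CPM, the others 11.3 to 14.1). Double mutant replicate 5 lay far below the other samples of its genotype for Myh11 (1.07 CPM, the others 2.12 to 2.46).

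By the edgeR test among the mutant genotypes, 155 shared genes differed in the size of their change.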

How the results depend on the processing

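None of the 3492 tests of named genes run under an alternative changed sign. Most named genes were chosen because they passed the test with all samples separated, so this was largely fixed by the choice. The filter at a mean of 1 CPM left out 8 of the 140 genes. Of the settings that changed counts past 1.5 times, DESeq2 called 1765 genes higher (edgeR 1020) and found 344 shared genes that differ among mutants (edgeR 155). The fit of mutants against WT as 2 groups called 1799 genes (640 higher), against 2724. With replicate numbers as a replicate block, 1305 genes were shared and 41 differed among mutants. The labels do not say whether equal numbers pair samples. Same-numbered deviations had a mean correlation of 0.0122 over 21 pairs (-0.163 to 0.273), and other numbers -0.00365 over 74 pairs (-0.279 to 0.261). Such means do not show whether some numbers were paired. The block ended the calls of Acaca (edgeR adjusted p = 0.0726), Actg2 (0.058), Btg2 (0.0512), E2f1 (0.0822), Notch1 (0.0582), Plin1 (0.0825), Tgfbr1 (0.0702) and Ube2c (0.0727), and Srebf1 passed as lower (0.029). Samples at least 1.5-fold apart left 453 shared genes (65 higher, 388 lower), calling each genotype on its own left 637 (173 and 464), and the fit of the 13 mutant samples found 95 that differ. Leaving out each sample gave 960 to 3187 genes called (201 to 1258 higher, 759 to 1929 lower), 794 to 1804 shared (167 to 631 higher, 627 to 1173 lower) and 74 to 203 that differ among mutants. The lowest values came without WT replicate 3, and for the last without PIK3CA replicate 2. For single named genes, leaving out a sample ended 120 calls, made 1 and left 2119 tests on their side of the threshold, and other settings ended 26, made 1 and left 1225. The 3 WT samples set the precision of every comparison with WT, and genes under 3 counts (0.0468 to 0.0659 CPM) cannot be told from 0.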

Other observations

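Rb1 and Itm2b, both shared and lower and both lowest in HER2 organoids, lie 36.4 kb apart on chromosome 14. Itm2b, which encodes an integral membrane protein, stood at 2700, 2551 and 2648 CPM in WT, at 1977 ± 217 CPM (SD, n = 4) in PIK3CA, 962 ± 308 (n = 4) in HER2 and 1971 ± 200 CPM (n = 5) in double mutants (edgeR adjusted p = 0.00728 for HER2 against PIK3CA and 0.00852 against double). Its difference between mutants and WT gave an adjusted p of 0.178 in the fit of 2 groups. Within 1 Mb of Rb1, 4 of 8 protein-coding genes tested were called between HER2 and PIK3CA organoids. Over all genes tested 4.41% were called, but the 4 include Rb1 and Itm2b. Their values were known when the window was chosen, so the 2 shares cannot be compared. Of the 4 genes, Rb1, Lpar6 and Itm2b were lower in HER2 (log2 fold change -1.29, -0.63 and -1.04) and Fndc3a was higher (0.87). The neighbours Rcbtb2, Med4 and Sucla2 did not pass, with log2 fold changes between -0.31 and -0.05. Lpar6 and Rcbtb2 overlap Rb1 in the annotation. This neighbourhood was chosen after the values were seen.

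By chromosome, shared higher genes made up 1.41% (chromosome 5) to 3.02% (chromosome 1) of the genes tested on each of the autosomes and X, and shared lower genes 1.99% (chromosome 12) to 4.86% (chromosome 10).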
